A study of Mus musculus with 6 samples.

Results

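A set of 35 mouse genes for heat-shock proteins, chaperones and their regulators was described across 3 tissues of the stress axis. The genes were chosen by symbol from a list of chaperone genes, by a rule that uses no measured value but with earlier results of these data known, and all 35 were found among the 27998 genes of the count matrices. The study compared C57BL/6 mice aged 10 weeks kept under chronic social defeat for 21 days, in which a mouse is repeatedly exposed to an aggressive resident, with control mice of the same strain and age. The tissues were the pituitary, the adrenal gland and a block of hypothalamus around its paraventricular nucleus (PVN). Each tissue gave 1 stress library and 1 control library, each made from a pool of 5 mice. Cells were released with papain for 35 min (PVN) or 15 min (pituitary) or with collagenase II for 55 min (adrenal), all at 37 °C, and the stress and control suspensions were processed side by side. With 1 library per group, nothing here was tested between conditions: every difference below is between a stress library and a control library, and the condition cannot be told apart from the pool, the handling of that suspension or the lane.

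Chaperones bind unfolded or newly made proteins and keep them from clumping until they fold. The heat-shock factors, of which HSF1 is the best known, switch on the inducible chaperone genes within minutes to hours of heat, oxidants or other damage to proteins, while the constitutive chaperones are made by all cells at all times. Enzymatic dissociation of tissue at body temperature is also known to switch on inducible chaperone genes and immediate-early genes in single-cell preparations. The 35 genes were grouped by role from textbook knowledge. The 12 inducible chaperones were Hspa1a and Hspa1b (both encode the inducible Hsp70), Hsph1 (Hsp110, a nucleotide exchange factor for Hsp70), Dnajb1, Dnajb4 and Dnaja1 (Hsp40 co-chaperones that bring clients to Hsp70), Hspb1, Hspb8 and Cryab (small heat-shock proteins that hold unfolded proteins), Bag3 (a partner of Hsp70 in selective autophagy), Hsp90aa1 (the inducible Hsp90 alpha) and Serpinh1 (a collagen chaperone of the endoplasmic reticulum). The 6 constitutive chaperones were Hspa8 (Hsc70), Hspa4, Hspa4l, Hsp90ab1 (Hsp90 beta), Dnaja2 and Dnajb6. The other groups were 6 Hsp90 co-chaperones and related factors (Ahsa1, Ahsa2, Chordc1, Stip1, Ptges3 and Cacybp), 3 mitochondrial chaperones (Hspa9, Hspd1 and Hspe1), 6 subunits of the CCT chaperonin that folds actin and tubulin (Cct2, Cct3, Cct4, Cct5, Cct8 and Tcp1) and 2 heat-shock transcription factors (Hsf1 and Hsf2). Serpinh1 and the 3 mitochondrial proteins are therefore not cytosolic.

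The promoters of 6 members are shown because they hold the short inverted repeats that heat-shock factors are known to bind, and because their genes differ in how far the stress and control libraries differed. Each runs from 250 bases before to 50 bases after the transcript start in RefSeq (build GRCm38.p6), and capitals mark matches to GAANNTTC or TTCNNGAA, 2 motifs that read the same on both strands and can overlap. Hspa1a lies at chr17:34972107-34972406 (minus strand), Hspa1b at chr17:34959189-34959488 (minus), Hspb1 at chr5:135887669-135887968 (plus), Hsph1 at chr5:149636287-149636586 (minus), Chordc1 at chr9:18292017-18292316 (plus) and Hspe1 at chr1:55087898-55088197 (plus).
Hspa1a: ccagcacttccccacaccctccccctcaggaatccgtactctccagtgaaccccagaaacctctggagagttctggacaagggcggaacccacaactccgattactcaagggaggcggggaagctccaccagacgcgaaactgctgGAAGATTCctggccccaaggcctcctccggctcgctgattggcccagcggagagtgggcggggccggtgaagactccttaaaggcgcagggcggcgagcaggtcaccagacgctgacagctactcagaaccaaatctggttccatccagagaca
Hspa1b: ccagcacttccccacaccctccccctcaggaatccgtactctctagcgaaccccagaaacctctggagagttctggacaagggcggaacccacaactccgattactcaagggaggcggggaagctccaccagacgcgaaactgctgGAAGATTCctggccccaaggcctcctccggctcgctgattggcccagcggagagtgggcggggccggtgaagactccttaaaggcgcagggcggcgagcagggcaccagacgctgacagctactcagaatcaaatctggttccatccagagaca
Hspb1: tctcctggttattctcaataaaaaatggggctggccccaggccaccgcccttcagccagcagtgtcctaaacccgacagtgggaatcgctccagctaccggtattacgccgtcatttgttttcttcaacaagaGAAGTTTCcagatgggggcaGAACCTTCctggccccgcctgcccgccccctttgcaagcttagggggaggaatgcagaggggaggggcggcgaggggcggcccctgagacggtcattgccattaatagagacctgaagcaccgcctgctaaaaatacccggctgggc
Hsph1: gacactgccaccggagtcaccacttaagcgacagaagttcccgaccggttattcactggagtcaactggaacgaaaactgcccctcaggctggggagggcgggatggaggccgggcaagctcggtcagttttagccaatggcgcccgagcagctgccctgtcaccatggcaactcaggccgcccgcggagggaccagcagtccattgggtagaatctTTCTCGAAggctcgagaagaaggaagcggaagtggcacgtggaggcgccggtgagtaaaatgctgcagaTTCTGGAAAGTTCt
Chordc1: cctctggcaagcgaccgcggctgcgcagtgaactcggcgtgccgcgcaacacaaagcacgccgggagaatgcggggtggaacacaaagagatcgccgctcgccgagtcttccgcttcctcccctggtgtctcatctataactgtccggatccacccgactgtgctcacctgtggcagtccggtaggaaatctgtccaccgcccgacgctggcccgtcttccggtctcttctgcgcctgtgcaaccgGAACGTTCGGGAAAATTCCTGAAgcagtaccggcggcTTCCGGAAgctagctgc
Hspe1: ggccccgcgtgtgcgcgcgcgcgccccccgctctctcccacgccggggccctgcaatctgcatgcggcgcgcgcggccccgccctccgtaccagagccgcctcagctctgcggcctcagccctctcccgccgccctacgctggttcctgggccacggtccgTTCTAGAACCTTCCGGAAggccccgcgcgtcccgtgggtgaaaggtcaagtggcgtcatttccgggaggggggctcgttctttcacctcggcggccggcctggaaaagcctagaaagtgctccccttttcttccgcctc
The Hspa1a and Hspa1b promoters differed at 4 of 300 bases, and in each the single match stood at position -104 from the start site. The transcripts of the pair were 85.5% identical, but their last 200 bases, nearest the end that is read, only 49.8%. How the counting treated reads from the more alike part is not given in the sources used here, so the split of counts between the pair is uncertain to that extent.

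RefSeq promoters were matched for 28 members, and 14 of these held at least 1 match. They were 8 of 10 inducible genes with a promoter, 1 of 4 constitutive genes, 1 of 6 co-chaperones, 2 of 2 mitochondrial chaperones, 2 of 5 CCT subunits and 0 of 1 transcription factors. Hspd1 and Hspe1 lie head to head, so the same 3 matches count for both, and a gene with several starts counts if any of its promoters holds a match. Among all 32851 promoters of that length, 7.86% held GAANNTTC, 8.52% held TTCNNGAA and 15.1% held either; these shares are per promoter and the counts above per gene. Dnajb1 and Serpinh1, both inducible, had no match in their windows. A match is a description of letters and not evidence of binding, and several members have more than 1 annotated start.

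The 6 libraries held 2330 to 5202 cell barcodes and 29059956 to 53244403 UMIs (unique molecular identifiers, which count RNA molecules), and 21698 of 23083 barcodes were kept. Median depth per kept cell ran from 5578 UMIs in the shallowest library to 10550 UMIs in the deepest. The labelled tissues carried their defining transcripts: Oxt, the oxytocin gene, stood at 2214 CPM (a UMI count scaled to a library total of 1000000) in the stress library and 4778 CPM in the control library of the PVN, Gh, the growth hormone gene, at 456477 CPM in stress and 429817 CPM in control in the pituitary, and Cyp11b1, which makes corticosterone, at 1028 CPM in stress and 1003 CPM in control in the adrenal. Cells were clustered without the chaperone and other responsive genes, and 26 classes with at least 20 cells in both libraries were named from marker genes, 9 of PVN cells, 12 of pituitary cells and 5 of adrenal cells; each name means cells like that type. Pairs of libraries shared 10 to 39 barcodes. Values below are CPM in the summed UMIs of a library or class, and "in stress" and "in control" stand for the stress and the control library. A difference is the log2 ratio of the stress over the control library, given for genes with at least 50 UMIs over both libraries, with an exact 95% interval that covers counting error only.

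In the stress library of the pituitary, the inducible Hsp70 genes, Dnajb1 and Hspb1 stood far above the control library, while the CCT subunits, most constitutive chaperones and the heat-shock factors did not. Hspa1a stood at 320 CPM in the stress library and 51.6 CPM in the control library, a log2 ratio of 2.63 (2.57 to 2.69), or 6.20-fold, which placed it at rank 10 of 14139 genes. Hspa1b stood at 11.5 CPM in stress and 2.45 CPM in control (2.23, 1.95 to 2.54). Dnajb1 stood at 112 CPM in stress and 32.6 CPM in control (1.78, 1.70 to 1.86). Hspb1 was at 144 CPM in stress and 66.3 CPM in control (1.11, 1.05 to 1.18). Of the 35 members, 6 were at least 1.5-fold higher in the stress library, against 1.85% of all genes with 50 UMIs, and 21 had a ratio above 0, against 28.2% of all genes. Hspb8 and Hsp90aa1 completed these 6. Hspb8 was at 3.18 CPM in stress and 1.93 CPM in control (0.72). Hsp90aa1 was at 368 CPM in stress and 239 CPM in control (0.62), and no member was 1.5-fold lower.

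The rest of the inducible group in the pituitary lay closer to equal. Serpinh1 was at 67.5 CPM in the stress library and 46.6 CPM in the control library (0.53). Dnaja1, an Hsp40, was at 233 CPM in stress and 165 CPM in control (0.49). Cryab was at 23.9 CPM in stress and 18.3 CPM in control (0.39). The remaining ratios were smaller still. Hsph1 was at 73.9 CPM in stress and 59.9 CPM in control (0.30). Bag3 was at 16.6 CPM in stress and 13.6 CPM in control (0.28). Dnajb4, also an Hsp40, was near equal at 52.3 CPM in stress and 52.6 CPM in control (-0.01). The group had 11 of 12 ratios above 0 and a median of 0.58, and its summed level was 1425 CPM in the stress library against 751 CPM in the control library.

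Among the constitutive chaperones of the pituitary, Hspa8, the main cytosolic Hsp70 of unstressed cells, was at 802 CPM in the stress library and 631 CPM in the control library (0.35). Hsp90ab1, the constitutive Hsp90, was at 708 CPM in stress and 533 CPM in control (0.41). Dnaja2 (-0.14), Hspa4 (-0.09), Dnajb6 (-0.06) and Hspa4l (-0.00) lay at or below 0, for a group median of -0.03. The co-chaperones had a median of 0.27, led by Ahsa2 (0.42), an activator of the Hsp90 ATPase. Hspe1, the mitochondrial chaperonin lid, was at 272 CPM in stress and 213 CPM in control (0.35), whereas Hspa9 was at 73.8 CPM in stress and 83.5 CPM in control (-0.18). Hspd1 was at 96.4 CPM in stress and 95.8 CPM in control (0.01). The 6 CCT subunits lay between -0.10 and -0.02. Hsf1 was at 12.8 CPM in stress and 14.7 CPM in control (-0.20). Hsf2 was at 8.05 CPM in stress and 10.1 CPM in control (-0.33). The median of all genes was itself at -0.11 in this tissue, where Gh alone takes a large part of the UMIs; relative to that median, 31 of the 35 members lay above 0, the CCT median was 0.03 and the constitutive median 0.08, so the sign of these 2 groups depends on the scaling, while Hsf1 and Hsf2 stayed below 0.

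**Figure D1:**
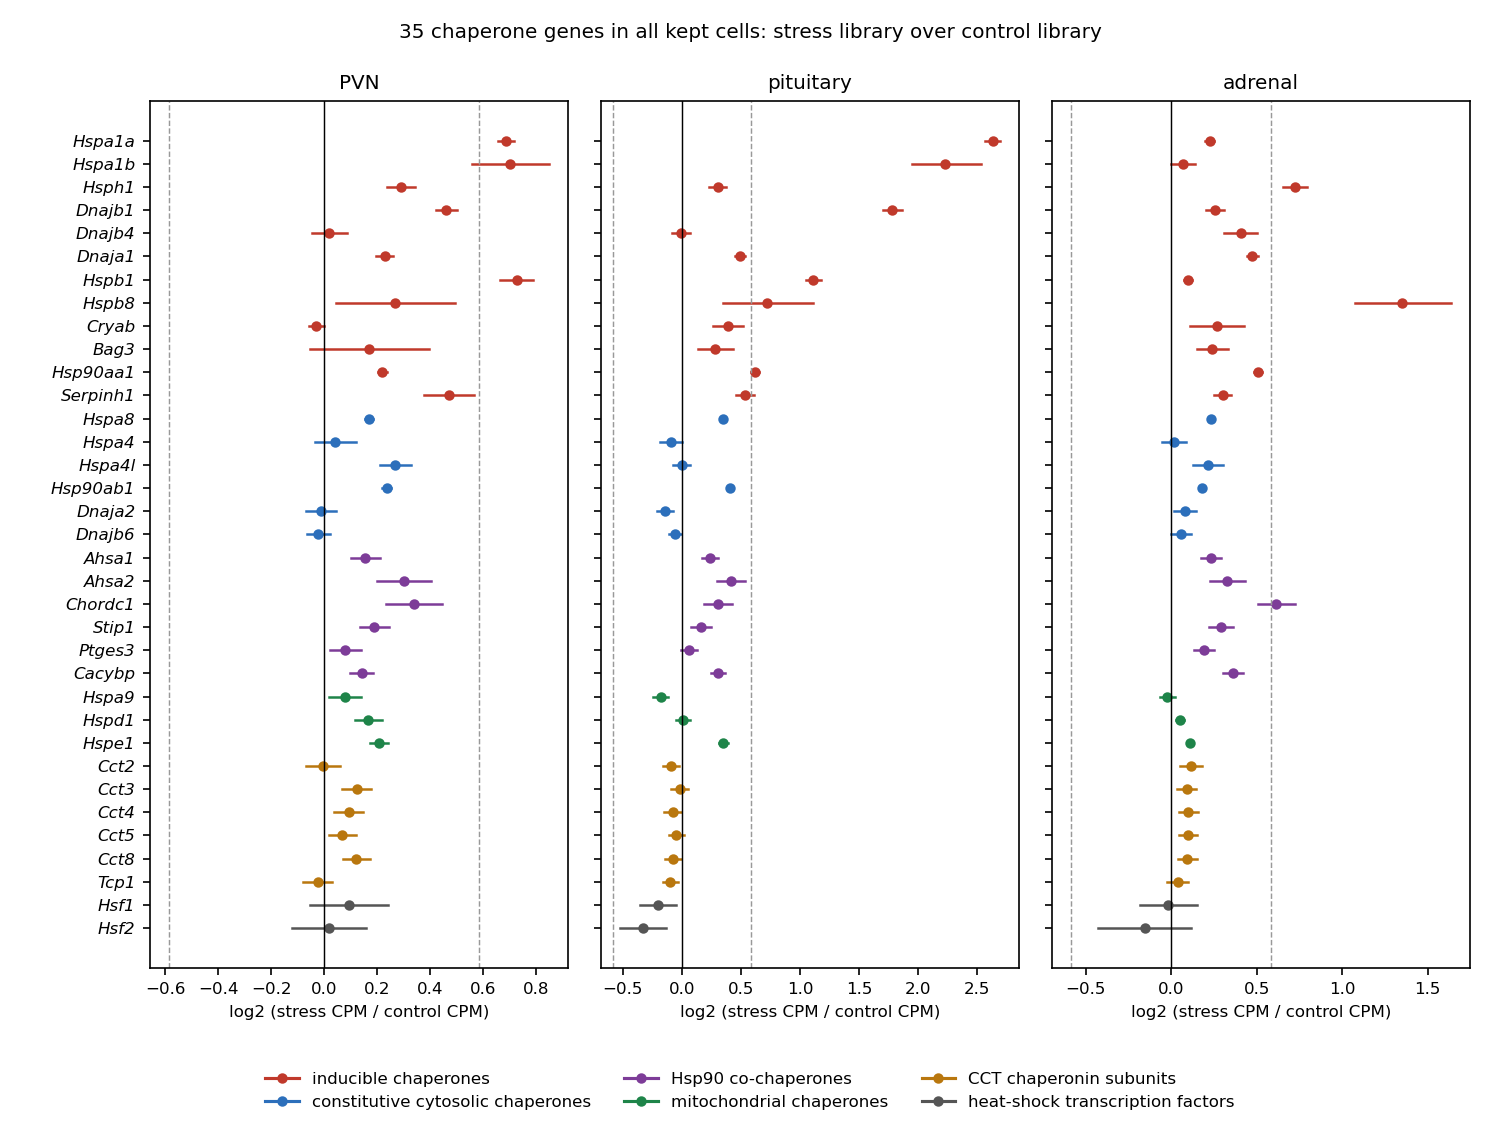
Log2 ratio of the stress over the control library for each of the 35 members in all kept cells of each tissue, grouped by role, with bars for the exact 95% interval (counting error only) and dashed lines at 1.5-fold in either direction; the x axes differ between tissues. Hspa1a, Hspa1b and Dnajb1 reach 2.63, 2.23 and 1.78 in the pituitary, while no member passes 0.73 in the PVN and Hspb8 leads the adrenal at 1.35.

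The higher Hspa1a in the pituitary was seen across most classes of hormone-producing cells. In lactotrope-like cells, which make prolactin, Hspa1a was at 308 CPM in the stress library and 27.4 CPM in the control library (3.49, 3.21 to 3.79), the highest ratio of any gene measured in that class. In corticotrope-like cells, the source of ACTH, it was at 613 CPM in stress and 61.7 CPM in control (3.31, 3.02 to 3.61), and in somatotrope-like cells, which make growth hormone, at 260 CPM in stress and 27.8 CPM in control (3.22, 3.12 to 3.32). Pituicyte-like (3.12), gonadotrope-like (3.05), thyrotrope-like (2.85), fibroblast-like (2.62) and melanotrope-like cells (2.62) followed. The ratio was smaller where the control level was already high: endothelial-like cells had 2866 CPM in stress and 1005 CPM in control (1.51), macrophage-like cells 895 CPM in stress and 411 CPM in control (1.12) and stem or folliculostellate-like cells 514 CPM in stress and 327 CPM in control (0.65). Erythroid-like cells, which should make little of it, held 48 Hspa1a UMIs in the stress library (99.5 CPM over 115 cells) and 0 in the control library (47 cells). Free RNA in the droplets can give such UMIs, and its part in the levels of the other classes was not tested.

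**Figure D2:**
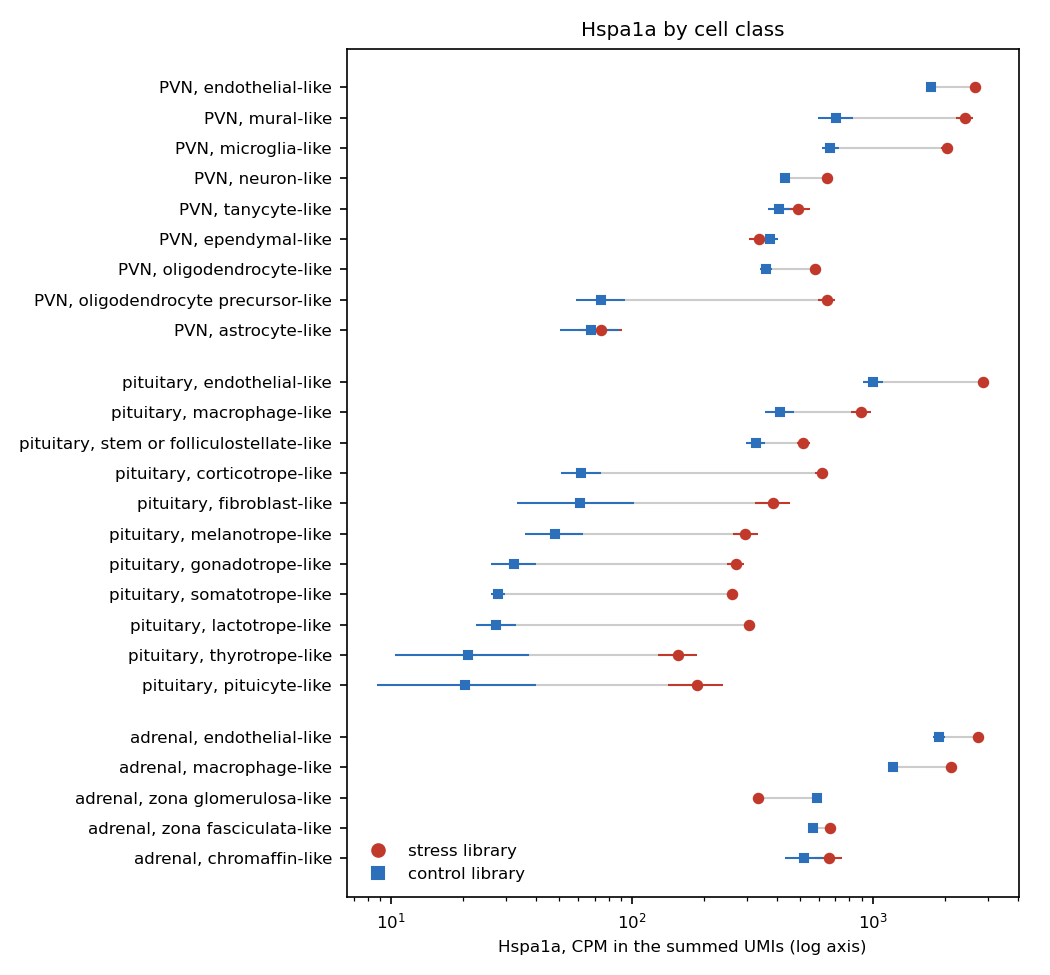
Hspa1a level in CPM (log axis) in the stress and the control library of each cell class, by tissue, with bars for the exact 95% Poisson interval; the erythroid-like pituitary class is left out because its control library holds 0 UMIs. The pituitary hormone-producing classes lie between 156 and 613 CPM in the stress library and between 20.8 and 61.7 CPM in the control library.

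In the stress library the Hspa1a UMIs came from many pituitary cells. At least 1 Hspa1a UMI was found in 67.8% of 3012 somatotrope-like cells of the stress library and 16.1% of 3177 in the control library, and in 68.3% of 240 corticotrope-like cells in stress and 16.9% of 272 in control. After each cell was thinned to 1000 UMIs the shares were 20.3% in stress and 2.68% in control of somatotrope-like cells and 32.5% in stress and 5.88% in control of corticotrope-like cells. The erythroid-like cells, with a median depth of 3757 UMIs in the stress library and 3277 in the control library against 11703 UMIs in stress and 10798 in control in somatotrope-like cells, had a share of 27.0% before and 10.4% after thinning in the stress library and of 0 of 47 cells in the control library. For this count of 0 a rough limit of 3 UMIs was taken, not the exact interval used elsewhere. It gives up to 6.38% of cells with a UMI and a level of up to 16.6 CPM. It sets no limit on cells that express the gene. The stress share of somatotrope-like cells thus stood above the erythroid-like share both before and after thinning. This was not so in every class. Pituicyte-like cells of the stress library had a UMI in 25.6% of 43 cells before and 9.30% after thinning (control 14.3% of 56 and 1.79%), and 1 cell held 21 of their 60 UMIs. Thyrotrope-like cells of the stress library had 35.9% of 103 before and 6.796% after thinning (control 7.06% of 85 and 0). Median depths were 6880 UMIs in stress and 6422 in control in pituicyte-like cells and 6251 UMIs in stress and 5763 in control in thyrotrope-like cells. After thinning, both classes lay below the erythroid-like share in the stress library. Before thinning, thyrotrope-like cells lay above it and pituicyte-like cells below it. These shares rest on few cells, and the part of free RNA in them was not tested. The ratios of both classes above are thus read neither as expression by these cells nor as free RNA. All 5 somatotrope-like clusters with at least 20 cells in both libraries had a ratio between 2.93 and 3.70.

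Other members in these cells followed in part. Dnajb1 was at 325 CPM in the stress library and 41.0 CPM in the control library of corticotrope-like cells (2.98, 2.63 to 3.36), and at 109 CPM in stress and 24.1 CPM in control in lactotrope-like cells (2.17). Hspb1 was at 266 CPM in stress and 78.4 CPM in control in corticotrope-like cells (1.76). Hspa1b in somatotrope-like cells was at 9.41 CPM in stress and 1.28 CPM in control (2.87, 2.42 to 3.37). These are the same members that led the tissue as a whole. The lowest members were Hsf2 (-0.24), Hsf1 (-0.24) and Dnaja2 (-0.15) in corticotrope-like cells, Cryab (-0.52), Hsf2 (-0.26) and Cct3 (-0.08) in lactotrope-like cells, and Hsf2 (-0.44), Cryab (-0.42) and Hspa9 (-0.30) in somatotrope-like cells. The count of members at least 1.5-fold higher was 4 of 34 measured in somatotrope-like cells (0.907% of all genes there), 8 of 33 in lactotrope-like cells (2.01%), 4 of 31 in corticotrope-like cells (3.63%), 12 of 30 in endothelial-like cells (4.14%) and 6 of 33 in stem or folliculostellate-like cells (2.87%). In endothelial-like cells Hspa1a was followed by Hspb1 at 1952 CPM in stress and 839 CPM in control (1.22), Hspa1b (1.06) and Hsph1 (1.03). In stem or folliculostellate-like cells Hsph1 (0.88), Hspa1b (0.83) and Dnajb1 (0.81) were highest, above Hspa1a. The lowest members were Dnajb6 (-0.15), Hspa4 (-0.10) and Hspa9 (0.04) in endothelial-like cells and Dnaja2 (-0.36), Hspa9 (-0.06) and Hsf1 (-0.04) in stem or folliculostellate-like cells.

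In the PVN most inducible members, 11 of 12, had a ratio above 0, and the highest was 0.73. Hspb1 was at 196 CPM in the stress library and 118 CPM in the control library (0.73, 0.67 to 0.79). Hspa1b was at 35.0 CPM in stress and 21.5 CPM in control (0.70, 0.56 to 0.85). Hspa1a was at 783 CPM in stress and 487 CPM in control (0.69, 0.66 to 0.72). These 3 were the only members at least 1.5-fold higher, against 1.23% of all 14886 genes, and 30 of 35 ratios lay above 0, against 51.5% of all genes. Serpinh1 followed at 72.9 CPM in stress and 52.6 CPM in control (0.47). Dnajb1 was at 412 CPM in stress and 299 CPM in control (0.46). The Hsp110, Hsp90 alpha and Bag3 genes lay nearer 0. Hsph1 was at 215 CPM in stress and 175 CPM in control (0.29). Hsp90aa1 was at 2099 CPM in stress and 1802 CPM in control (0.22). Bag3 was at 11.9 CPM in stress and 10.6 CPM in control (0.17). The lowest were Cryab at 647 CPM in stress and 661 CPM in control (-0.03), Tcp1 (-0.02) and Dnajb6 (-0.02). The makeup of the PVN libraries also differed, with 239 endothelial-like cells in stress and 179 in control. Those cells held 3609 Hspb1 UMIs in stress and 2115 in control, at 2514 CPM in stress and 1854 CPM in control. The part of makeup in the ratios of all PVN cells was not tested.

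The role groups of the PVN had medians of 0.28 for the inducible group, 0.17 for the co-chaperones, 0.17 for the mitochondrial chaperones, 0.11 for the constitutive group, 0.08 for CCT and 0.06 for the heat-shock factors, beside 0.01 for all genes. Hspa8 was at 2385 CPM in the stress library and 2120 CPM in the control library (0.17). Hsp90ab1 was at 1905 CPM in stress and 1617 CPM in control (0.24). Chordc1, a zinc-binding partner of Hsp90, led the co-chaperones at 57.5 CPM in stress and 45.4 CPM in control (0.34).

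The PVN class that stood apart was the oligodendrocyte precursor-like cells, the glia that can divide and form myelinating cells. There Hspa1a was at 643 CPM in the stress library and 74.5 CPM in the control library (3.10, 2.76 to 3.48), or 8.59-fold, the highest ratio of any gene measured in that class. Dnajb1 was at 374 CPM in stress and 123 CPM in control (1.60, 1.30 to 1.91). Hsph1 was at 169 CPM in stress and 98.9 CPM in control (0.77). The constitutive Hsp70 gene was much less apart than the inducible one. Hsp90aa1 was at 1568 CPM in stress and 1018 CPM in control (0.62), whereas Hspa8 was at 2338 CPM in stress and 2029 CPM in control (0.20). In all, 4 of 29 members measured were at least 1.5-fold higher (3.01% of all genes), and Tcp1 (-0.44), Cct2 (-0.17) and Hspa9 (-0.14) were lowest. An Hspa1a UMI was found in 46.1% of 167 cells of the stress library and 23.7% of 186 cells of the control library, and in 24.0% in stress and 8.60% in control after thinning to 1000 UMIs, at median depths of 5175 UMIs in stress and 4570 in control. Astrocyte-like cells, the PVN class of lowest Hspa1a level, had 15.7% in stress and 16.4% in control before and 6.40% in stress and 3.29% in control after thinning, at 3390 UMIs in stress and 3355 in control. A single cell of the stress library held 93 of the 583 UMIs, and without the highest cell of each library the levels were 545 CPM in stress and 64.7 CPM in control. The 10% of cells with the most Hspa1a held 73.8% of its UMIs in stress and 65.8% in control, so the ratio rests largely on a small part of the class. The larger of the clusters in this class gave 2.89 by itself, and the summed oligodendrocyte markers of the class were lower in the stress library (6670 CPM in stress and 10078 CPM in control, 0 of 8 at 0 UMIs); the part of the makeup of the class in the ratio was not tested.

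Other glia and vessel cells of the PVN each had their own leading members. In microglia-like cells, the brain's resident macrophages, Hspa1a was at 2024 CPM in the stress library and 667 CPM in the control library (1.60, 1.46 to 1.74), and 11 of 30 members were at least 1.5-fold higher (6.13% of all genes). Cryab, a small heat-shock gene of oligodendrocytes, was at 156 CPM in stress and 24.8 CPM in control in the same cells (2.63, 2.004 to 3.36). The 8 oligodendrocyte markers ran with it, with a sum of 1432 CPM in the stress library and 281 CPM in the control library of microglia-like cells and none at 0. A single cell held 45 of the 108 Cryab UMIs of the stress library, and without the highest cells the levels were 92.1 CPM in stress and 22.9 CPM in control; the part of oligodendrocyte RNA in the Cryab ratio was not tested. Hspb1 was at 72.2 CPM in stress and 24.8 CPM in control in these cells (1.53), and Tcp1 (-0.28), Hspa4 (-0.20) and Dnaja2 (-0.15) were lowest.

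In mural-like cells, which wrap small vessels, Dnajb1 was at 530 CPM in the stress library and 109 CPM in the control library (2.25, 1.63 to 2.98). Hspa1a was at 2413 CPM in stress and 703 CPM in control (1.78). That class had 57 cells in stress and 38 in control, 9 of 25 members at least 1.5-fold higher and the highest background of the PVN classes described (12.7% of genes). Serpinh1 came next at 530 CPM in stress and 276 CPM in control (0.94), and Dnajb6 (-0.56), Cct2 (-0.45) and Cct5 (-0.38) were lowest. A single cell held 171 of 597 Hspa1a UMIs in the stress library, and the levels without the highest cells were 1748 CPM in stress and 477 CPM in control. For Dnajb1 a single cell held 60 of the 131 UMIs of the stress library. Without the highest cells its levels were 291 CPM in stress and 87.6 CPM in control. In ependymal-like cells, which line the ventricle, Hspb1 was at 187 CPM in stress and 69.0 CPM in control (1.44, 1.14 to 1.75). Dnajb1 was at 714 CPM in stress and 333 CPM in control (1.10), while Hspa1a was at 336 CPM in stress and 376 CPM in control (-0.16, -0.33 to 0.00). Dnajb1 and Hspa1a also differed in sign in PVN endothelial-like cells (Dnajb1 -0.17, Hspa1a 0.60) and adrenal chromaffin-like cells (Dnajb1 -0.08, Hspa1a 0.34). Both Dnajb1 ratios were small, from 261 UMIs in stress and 233 in control in the endothelial-like cells. In chromaffin-like cells they were 117 in stress and 83 in control, and Hspa1a there was at -0.39 with no filter on cells. These signs are thus not taken as settled. Ependymal-like cells had 6 of 35 members at least 1.5-fold higher (3.04% of genes), Hspb8 (0.70) among them, with Dnaja2 (-0.27), Hspa1a and Dnajb4 (-0.15) lowest.

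Oligodendrocyte-like cells had 6 of 33 members at least 1.5-fold higher (1.77% of genes), led by Hspb1 at 15.1 CPM in the stress library and 4.65 CPM in the control library (1.67, from 44 UMIs in stress and 17 in control), with Hspa1b (0.84) next. Dnajb1 was at 725 CPM in stress and 412 CPM in control (0.81). A single cell held 14 of those 44 Hspb1 UMIs, and the levels without the highest cells were 10.3 CPM in stress and 4.39 CPM in control. Cryab, at its highest level of all classes in these cells, was at 5625 CPM in stress and 4915 CPM in control (0.19). Endothelial-like cells had 6 of 34 (1.90% of genes), led by Hsph1 at 73.2 CPM in stress and 37.7 CPM in control (0.95), Ahsa2 (0.77) and Dnaja1 (0.75). Neuron-like cells, the largest class, had 3 of 35 (1.12% of genes), all of them inducible. Hspb1 was at 14.8 CPM in stress and 8.35 CPM in control (0.82). Hspa1b was at 20.3 CPM in stress and 11.7 CPM in control (0.79). Hspa1a was at 647 CPM in stress and 431 CPM in control (0.59). Astrocyte-like cells had 2 of 30 (3.08% of genes), Serpinh1 and Cct3, and little difference in Hspa1a. Serpinh1 was at 200 CPM in stress and 123 CPM in control (0.69). Cct3 was at 135 CPM in stress and 85.5 CPM in control (0.65). Hspa1a was at 74.4 CPM in stress and 67.4 CPM in control (0.14). Chordc1 (0.47) followed in astrocyte-like cells. In tanycyte-like cells, which line the floor of the ventricle, Hspb8 was at 55.4 CPM in stress and 24.4 CPM in control (1.17), ahead of Dnajb1 (0.63) and Hsp90aa1 (0.52). The lowest members were Tcp1 (-0.11), Cct8 (-0.05) and Cct3 (0.02) in oligodendrocyte-like cells, Cryab (-0.23), Dnajb1 (-0.17) and Dnajb4 (-0.12) in endothelial-like cells, and Hspb8 (-0.23), Cryab (-0.06) and Cct2 (-0.05) in neuron-like cells. They were Ahsa2 (-0.42), Hspd1 (-0.35) and Hspa4l (-0.26) in astrocyte-like cells and Dnajb6 (-0.54), Cacybp (-0.23) and Hspa4l (-0.14) in tanycyte-like cells. Neuron-like clusters ranged in Hspa1a ratio between 0.04 and 1.51, so the class value averages over clusters that differ.

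**Figure D3:**
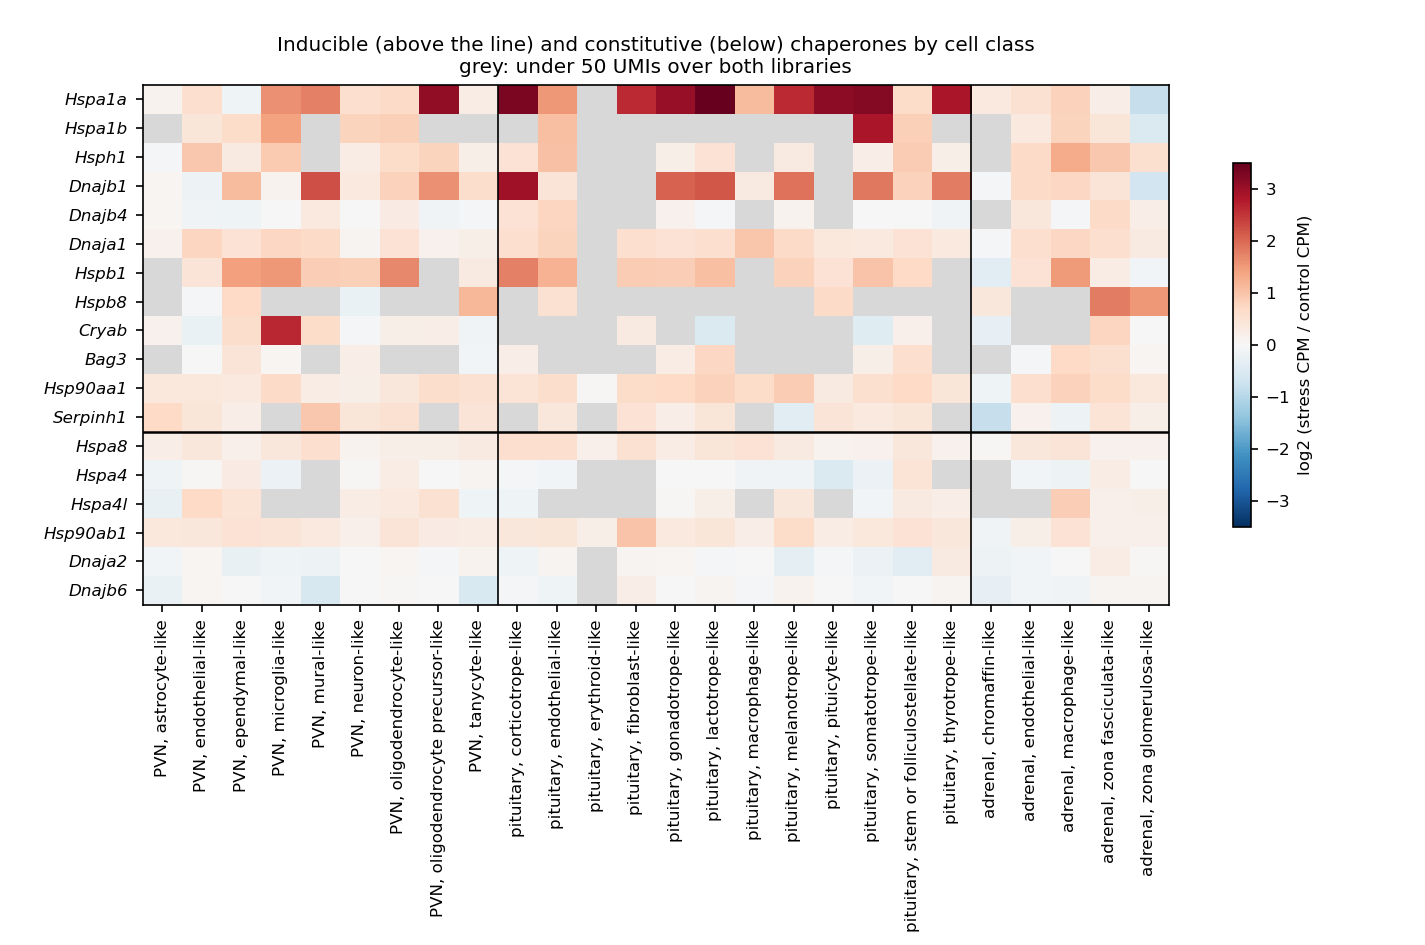
Log2 ratio of the stress over the control library for each inducible and constitutive member (rows) in each cell class (columns, by tissue), red for higher and blue for lower in the stress library, grey where a member has under 50 UMIs. Hspa1a is deep red in the pituitary hormone-producing classes (2.62 to 3.49) and in PVN oligodendrocyte precursor-like cells (3.10), and Hspa1a and Dnajb1 are blue in adrenal zona glomerulosa-like cells (-0.80 and -0.68).

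In the adrenal a small heat-shock gene, the Hsp110 gene and an Hsp90 partner led, and the Hsp70 pair did not. Hspb8, a small heat-shock protein that works with Bag3, was at 13.3 CPM in the stress library and 5.19 CPM in the control library (1.35, 1.08 to 1.64). Hsph1 was at 149 CPM in stress and 89.98 CPM in control (0.72, 0.65 to 0.80). Chordc1 was at 62.9 CPM in stress and 41.1 CPM in control (0.62, 0.51 to 0.72). These were the 3 members at least 1.5-fold higher, a share near that of all genes (7.51%), while 32 of 35 ratios lay above 0, against 54.0% of all genes. Hsp90aa1 was at 1236 CPM in stress and 870 CPM in control (0.51). Dnaja1 was at 658 CPM in stress and 474 CPM in control (0.47). The Hsp70 pair, which led in the pituitary, was nearer to equal. Hspa1a was at 788 CPM in stress and 674 CPM in control (0.22, 0.20 to 0.25). Hspa1b was at 117 CPM in stress and 112 CPM in control (0.07). Dnajb1, Bag3 and Hspb1 lay in the same range. Dnajb1 was at 221 CPM in stress and 185 CPM in control (0.25). Bag3 was at 74.3 CPM in stress and 63.0 CPM in control (0.24). Hspb1 was at 1160 CPM in stress and 1084 CPM in control (0.10). The makeup of the adrenal libraries also differed: macrophage-like cells numbered 467 in stress and 302 in control and endothelial-like cells 275 in stress and 131 in control. Their markers C1qa (589 CPM in stress and 354 CPM in control) and Plvap (158 CPM in stress and 97.01 CPM in control) moved with these counts. Both classes are high in Hspa1a, and the part of makeup in the ratios of all adrenal cells was not tested.

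The co-chaperones had the highest median of the adrenal role groups, 0.31, next to 0.28 for the inducible group, 0.13 for the constitutive group, 0.10 for CCT, 0.05 for the mitochondrial chaperones and -0.09 for the heat-shock factors, beside 0.02 for all genes. Hspa8 was at 2166 CPM in the stress library and 1840 CPM in the control library (0.24). Hsp90ab1 was at 2248 CPM in stress and 1983 CPM in control (0.18). The lowest members were Hsf2 at 7.44 CPM in stress and 8.29 CPM in control (-0.16), Hspa9 (-0.02) and Hsf1 (-0.02). Barcodes over the mitochondrial limit, which were left out, made up 11.9% of the stress library and 5.58% of the control library in this tissue, and with no filter on mitochondrial share, genes or doublets, 2 members were at least 1.5-fold higher.

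Cells like the zona fasciculata, which make corticosterone, had the same leading members, Hspb8 and Hsph1. Hspb8 was at 27.9 CPM in the stress library and 8.09 CPM in the control library (1.78, 1.43 to 2.16). Hsph1 was at 200 CPM in stress and 103 CPM in control (0.95, 0.84 to 1.06). Cryab was at 32.95 CPM in stress and 19.6 CPM in control (0.75). The Hspb8 values rest on 268 UMIs in stress and 83 in control. Of 35 members, 7 were at least 1.5-fold higher (2.71% of genes) and 34 had a ratio above 0 (50.5% of genes). Hspa1a was at 667 CPM in stress and 565 CPM in control (0.24), and the lowest members were Hspd1 at 1034 CPM in stress and 1083 CPM in control (-0.07), Hspe1 (0.02) and Cct5 (0.05). The Hspa1a ratio moved to 0.74 when clusters were weighted equally and to -0.02 when chaperone and other responsive genes were kept among the clustering genes, so no direction is given for it.

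Cells named for the zona glomerulosa, the zone that makes aldosterone, had less of the Hsp70 genes and of Dnajb1 in the stress library. The class held 861 cells in stress and 694 in control. Cyp11b2, the gene for aldosterone synthase, was at only 23.8 CPM in stress and 16.8 CPM in control over all kept adrenal cells. The name thus rests on the marker list as a whole and does not show that most of these cells make aldosterone. Hspa1a was at 335 CPM in the stress library and 585 CPM in the control library (-0.80, -0.86 to -0.74). Dnajb1 was at 89.6 CPM in stress and 144 CPM in control (-0.68, -0.80 to -0.56). Hspa1b was at 76.0 CPM in stress and 108 CPM in control (-0.51). Of the 35 members, Hspa1a and Dnajb1 were the 2 at least 1.5-fold lower (2.93% of genes were), and Hspb8, at 3.96 CPM in stress and 1.34 CPM in control from 46 UMIs in stress and 14 in control (1.53, 0.67 to 2.54), was the only one at least 1.5-fold higher (2.47% of genes). Chordc1 (0.58), Hsph1 (0.55) and Hsp90aa1 (0.36) lay above 0 in the same cells. The clusters of this class differed in Hspa1a level and in their share of each library: a cluster with 162 cells of the stress library and 290 of the control library had 708 CPM in stress and 895 CPM in control, while the other 2 had 219 to 264 CPM in the stress library and 287 to 305 CPM in the control library. Within the 3 clusters the Hspa1a ratio was -0.21, -0.34 and -0.39, and their equal-weight mean was -0.31, so the sign held within clusters at less than the size in the class as a whole. Dnajb1 was at -0.06, -0.28 and -0.07 within the same clusters. No cluster of this class was thus 1.5-fold lower in either gene, and most of the Dnajb1 ratio of the class was not seen among cells of the same cluster.

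Among the other adrenal classes, macrophage-like cells had 13 of 32 members at least 1.5-fold higher (6.02% of genes), led by Hspb1 at 205 CPM in the stress library and 72.9 CPM in the control library (1.49, 1.23 to 1.76). Hsph1 was at 134 CPM in stress and 54.5 CPM in control (1.29), followed by Hspa4l (0.87). Their Hspa1a was at 2103 CPM in stress and 1209 CPM in control (0.80) and their Dnajb1 at 561 CPM in stress and 338 CPM in control (0.73). The 2 macrophage-like clusters differed in Hspa1a: 1 with 399 cells in stress and 281 in control had a ratio of 0.91, and 1 with 68 cells in stress and 21 in control had -0.13 (2226 CPM in stress and 2434 CPM in control). Endothelial-like cells had 8 of 31 (4.10% of genes), led by Chordc1 (0.85), Hspe1 (0.83) and Cacybp (0.79). Their Hspa1a was at 2737 CPM in stress and 1886 CPM in control (0.54). The lowest members were Hsf1 (-0.24), Serpinh1 (-0.18) and Hspa4 (-0.17) in macrophage-like cells and Hsf1 (-0.16), Dnaja2 (-0.11) and Dnajb6 (-0.08) in endothelial-like cells. Chromaffin-like cells, named for cells of the medulla, ran the other way, with 4 of 24 members at least 1.5-fold lower (8.93% of genes). Pnmt, a marker on their list, was at only 0.487 CPM in stress and 0.288 CPM in control over all kept adrenal cells, so the name does not show that these cells make adrenaline. Their Hspd1 was at 210 CPM in stress and 421 CPM in control (-1.001, -1.46 to -0.56). Serpinh1 was at 117 CPM in stress and 202 CPM in control (-0.79). Hspa9 was at 125 CPM in stress and 206 CPM in control (-0.72), while Ahsa1 (0.48), Hspb8 (0.40) and Hspa1a (0.34) were highest. Only 41 cells of the stress library and 28 of the control library made up this class, and the 6 fasciculata markers in them summed to 929 CPM in stress and 4417 CPM in control with none at 0. Hspd1 is at its highest in cells of the cortex, and the part of cortical RNA in these ratios was not tested.

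Across the classes of all tissues, the median ratio of the inducible group lay above that of the constitutive group. This held in 25 of 25 classes with at least 4 genes measured in each group, also in adrenal chromaffin-like cells, where both medians were below 0 (-0.11 for the inducible and -0.15 for the constitutive genes). The gap ran from 0.01 in adrenal zona glomerulosa-like cells to 0.91 in PVN microglia-like cells, with a median of 0.44. The classes of a tissue share both libraries and are not independent of each other. Taken gene by gene, Hspa1a was measured in 25 classes, was above 0 in 23, at least 1.5-fold higher in 18 and at least 1.5-fold lower in 1, with a median of 1.12. Hspb1 was at least 1.5-fold higher in 14 of 21 classes (median 0.86) and Dnajb1 in 14 of 23 (median 0.73). Hspa8 was above 0 in 26 of 26 classes but at least 1.5-fold higher in 1 (median 0.28), and Hsp90ab1 was above 0 in 25 of 26 and at least 1.5-fold higher in 2 (median 0.36). Chordc1 was above 0 in 20 of 20 classes (median 0.46). Dnaja2 (median -0.06), Dnajb6 (-0.01) and Hspa4 (-0.01) centred on 0, and Hsf1 was above 0 in 4 of 13 classes and Hsf2 in 6 of 12.

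**Figure D4:**
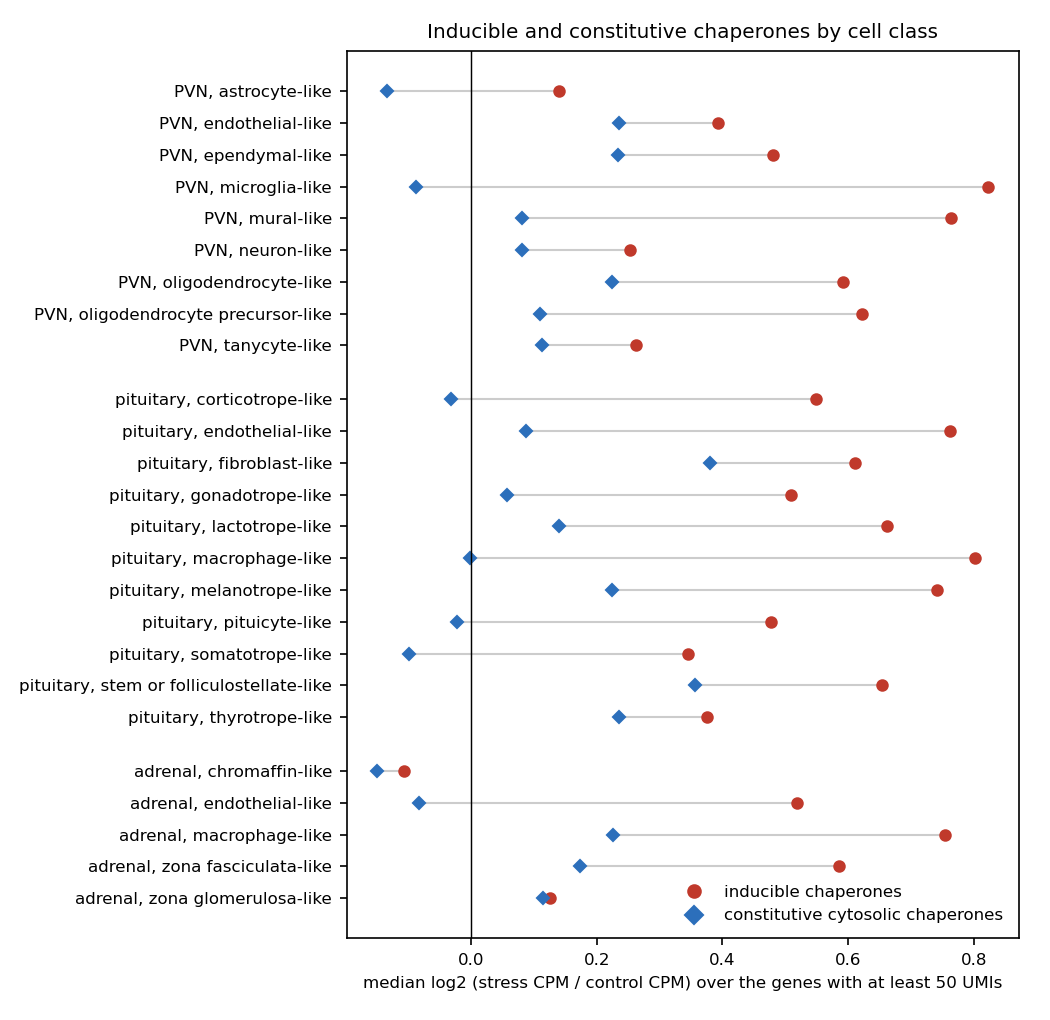
Median log2 ratio of the stress over the control library of the inducible and of the constitutive members in each of the 25 classes with at least 4 genes of each group measured. The inducible median lies above the constitutive median in 25 of 25 classes, by 0.01 to 0.91.

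The inducible members did not move as 1 block across classes. The ratio of Hspa1a ran with that of Hspa1b over 12 classes (Pearson r = 0.95) and with that of Dnajb1 over 23 classes (r = 0.83), but not with that of Hsph1 over 20 classes (r = -0.17). Within the pituitary r was 0.89 with Dnajb1 over 9 classes and -0.76 with Hsph1 over 8, and within the PVN 0.52 over 9 and 0.59 over 8. The points share libraries and differ in depth, and counts of Hspa1a and Hspa1b may be split, so these values describe the classes and were not tested. Some classes passed the filter mainly through the stress library, for Hspa1a the pituicyte-, thyrotrope- and fibroblast-like cells of the pituitary. For Dnajb1 these were thyrotrope- and melanotrope-like cells of the pituitary and mural-like cells of the PVN. For Hspa1b they included somatotrope-like cells, whose ratio of 2.87 was the highest of its 12 classes. The values of r with these genes include such classes and are not taken as support for a link. Among 942 genes measured in all 25 classes, the 5 whose ratios were most like that of Hspa1a were Jun (r = 0.87), Fos (0.77), Junb (0.70), Jund (0.67) and Atp5o (0.61). The most alike member of the chaperone set in that ranking was Hsp90aa1 (0.36). Hspa1b, Dnajb1, Hspb1, Hsph1 and Bag3 were not measured in all 25 classes and could not enter it. The ranking therefore does not set Hspa1b (0.95 over 12 classes) or Dnajb1 (0.83 over 23) against Jun and Fos.

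Immediate-early genes, which encode fast transcriptional regulators such as Fos and Jun, are given beside Hspa1a. In the pituitary 16 of 18 of them were above 0 and 12 at least 1.5-fold higher, with a median of 0.85, from Myc (-0.42) to Fosb (1.59). In the PVN, 0 of 18 were above 0, with a median of -0.14, from Egr2 (-0.69) to Jun (-0.03). In the adrenal 15 of 18 were below 0, with a median of -0.25, from Nr4a1 (-1.29) to Klf4 (0.39). By class, the immediate-early median was 1.39 in somatotrope-like and 1.05 in corticotrope-like cells and -0.79 in zona glomerulosa-like cells, where 17 of 17 were below 0, and 0.10 in oligodendrocyte precursor-like cells. The PVN classes differed, with medians from -0.30 in neuron-like cells to 1.16 in mural-like cells, where 14 of 14 were above 0. Ependymal-like cells had 15 of 17 above 0 (median 0.38), with Hspa1a at -0.16. Hspa1a and this median ran together over all 25 classes (r = 0.77) and over the 11 of the pituitary (r = 0.64), less so over the 9 of the PVN (r = 0.20). The values over all classes and over the pituitary include pituicyte-, thyrotrope- and fibroblast-like cells, where Hspa1a passed the filter mainly through the stress library. The part of cell dissociation in either set of genes was not tested.

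**Figure D5:**
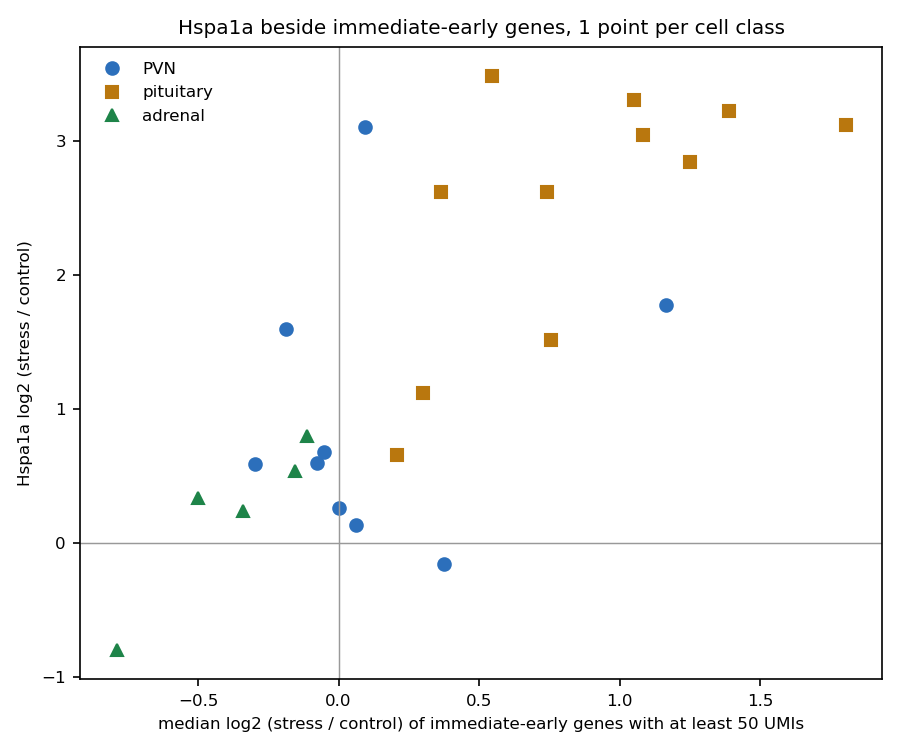
Hspa1a log2 ratio of the stress over the control library (y axis) against the median log2 ratio of the immediate-early genes (x axis), 1 point per cell class, 25 classes in 3 tissues. The pituitary classes lie at upper right, adrenal zona glomerulosa-like cells at lower left (-0.79 and -0.80), and PVN oligodendrocyte precursor-like cells at 3.10 with an immediate-early median of 0.10.

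Other chaperone pathway genes lay close to 0 by their medians. Among 54 other chaperone pathway genes, 52 were measured in the PVN (median 0.02, 30 above 0), 50 in the pituitary (median -0.05, 15 above 0) and 48 in the adrenal (median 0.03, 32 above 0). In the PVN the highest were Hspb2 (0.28), Hspa12b (0.27) and Dnaja4 (0.22), and the lowest Hspbap1 (-0.33), Hspb3 (-0.20) and Pfdn5 (-0.14). In the pituitary the highest was Hspa12b (0.56) and the lowest were Hsf4 (-0.66), Trap1 (-0.26) and Dnajc7 (-0.25). In the adrenal the highest were Hspa12b (1.04), Hspa12a (0.40) and Bag2 (0.35), and the lowest Hspbap1 (-0.47), Hspa2 (-0.12) and Pfdn1 (-0.12). Genes of the unfolded protein response of the endoplasmic reticulum had medians of 0.06 in the PVN (Ddit3 at -0.06 to Calr at 0.15), 0.01 in the pituitary (Pdia4 at -0.07 to Atf4 at 0.20) and 0.14 in the adrenal (Atf4 at -0.01 to Herpud1 at 0.45). The cold-inducible RNA-binding genes Cirbp and Rbm3 were at -0.27 and -0.33 in the PVN and at -0.54 and -0.20 in the pituitary, and at -0.29 and 0.52 in the adrenal.

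The members also differed in level between tissues and classes. Hspa1a in all kept cells was at 788 CPM in the stress library and 674 CPM in the control library of the adrenal, at 783 CPM in stress and 487 CPM in control in the PVN and at 320 CPM in stress and 51.6 CPM in control in the pituitary, the tissue with the shortest dissociation. Tissue, enzyme and dissociation time cannot be told apart. In a class found in all 3 tissues, endothelial-like cells, Hspa1a was at 2737 CPM in stress and 1886 CPM in control in the adrenal, 2654 CPM in stress and 1752 CPM in control in the PVN and 2866 CPM in stress and 1005 CPM in control in the pituitary, which put these 3 classes at the top of 26. The stress levels of the 3 tissues lay close together and the control level of the pituitary was the lowest of the 6. Adrenal macrophage-like cells followed at 2103 CPM in stress and 1209 CPM in control, and PVN astrocyte-like (74.4 CPM in stress and 67.4 CPM in control) and pituitary erythroid-like cells (99.5 CPM in stress and 0 CPM in control) were at the bottom.

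Other members each had a class of highest level. Hspb1 was highest in adrenal endothelial-like cells at 3002 CPM in the stress library and 2123 CPM in the control library, and lowest in pituitary somatotrope-like cells at 8.61 CPM in stress and 4.33 CPM in control. Cryab was highest in PVN oligodendrocyte-like cells, Hsp90aa1 in PVN ependymal-like cells at 6220 CPM in stress and 4866 CPM in control, and Dnajb1 in PVN oligodendrocyte-like cells. The mitochondrial pair was highest in steroid-making cells, which are rich in mitochondria: Hspe1 was at 3740 CPM in stress and 2993 CPM in control in zona glomerulosa-like and 2723 CPM in stress and 2682 CPM in control in zona fasciculata-like cells, and Hspd1 at 1540 CPM in stress and 1252 CPM in control in zona glomerulosa-like and 1034 CPM in stress and 1083 CPM in control in zona fasciculata-like cells. Serpinh1 was highest in pituitary fibroblast-like cells at 1343 CPM in stress and 949 CPM in control. Hspa8 was highest in pituitary endothelial-like cells at 4215 CPM in stress and 2818 CPM in control and Bag3 in zona fasciculata-like cells at 105 CPM in stress and 70.8 CPM in control. Levels are compared within a gene, since transcript ends are counted and capture differs between genes. Cryab, Hspa1a, Dnaja1, Dnajb6, Ahsa2, Chordc1, Cct8, Tcp1 and the Hspd1 and Hspe1 pair each overlap a gene on the opposite strand, and the strand setting of the counting is not given in the sources used here.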

How the data were processed

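A total of 6 single-cell libraries, 1 stress and 1 control for each of 3 tissues, were read as UMI count matrices (counts of RNA molecules per gene and cell) as deposited by the authors; Cell Ranger 2.1.1, mm10 and Scanpy are named per the submitters' processing notes. The annotation and the strand setting of the counting are not given in the sources used here.

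A barcode was kept if it had 200 genes or more and no more than 25% of its UMIs were mitochondrial. Doublets were scored against 2 simulated doublets per barcode, and 0.8% per 1000 barcodes were removed (728). Each tissue was clustered (2000 variable genes, 30 components, 15 neighbours, Leiden resolution 1) without the members, immediate-early and other responsive genes. Clusters were named from marker lists (at least 3 detected). Clusters led by dividing-cell genes or by markers of unrelated classes, or of adrenal zones that differed by less than 0.1 in score, were left unnamed (7 of 63 clusters, 655 cells); these naming rules were set after the clusters were seen. The members and gene lists were chosen with earlier results of these data known.

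UMIs were summed per library and class and given as CPM, with 0.5 UMI added to each sum for log2 ratios of stress over control. The 95% intervals are exact (Poisson for levels, conditional for ratios, Clopper-Pearson for shares) and cover counting error only. Genes with at least 50 UMIs over both libraries and classes with at least 20 cells in both were used, and a ratio counted as higher or lower from 1.5-fold. Hspa1a ratios by class from thinned cells were not held to the minimum of 50 UMIs. For shares, each cell was also thinned to 1000 UMIs; no cell was shallower. Members were named as the 3 highest and 3 lowest per tissue and class described, with Hspa1a, Hspa1b, Dnajb1, Hsph1, Hspb1, Bag3, Hsp90aa1, Hspa8 and Hsp90ab1 in every tissue. Some genes outside the set that rank among the highest or most alike are not reported here. Interval coverage was checked only on simulated Poisson counts, the model that the intervals assume. That check cannot speak to spread between cells, pools or lanes. Python 3.11.15, numpy 2.4.6, scipy 1.17.1, pandas 2.3.3, scikit-learn 1.9.0, anndata 0.12.19, Scanpy 1.11.5, leidenalg 0.10.2 and matplotlib 3.10.9 were used.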

Additional observations from a re-analysis of the deposited data

Results flagged for a closer look

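Pairs of adrenal classes had ratios of opposite sign for the same member, with intervals that both leave out 0; the difference between the classes was not tested, since each tissue has 1 library per condition. Hspa1a had a log2 ratio of stress over control of -0.80 in zona glomerulosa-like cells and 0.80 in macrophage-like cells. Within clusters it was -0.21 to -0.39 in zona glomerulosa-like cells, and 0.91 and -0.13 in the 2 macrophage-like clusters. Dnajb1 stood at -0.68 in zona glomerulosa-like and 0.73 in macrophage-like cells, but at -0.06, -0.28 and -0.07 within the 3 zona glomerulosa-like clusters. Hspd1 stood at -1.001 in chromaffin-like cells, from 74 UMIs in the stress library and 100 in the control library, and at 0.60 in macrophage-like cells.

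Barcodes left out for a high mitochondrial share also carried member differences. In the adrenal, 378 such barcodes of the stress library held 65 Hspb8 UMIs and 130 of the control library held 3, a log2 ratio of 2.53 (1.13 to 5.06). In the same adrenal barcodes other members were lower in the stress library with intervals that leave out 0, namely Dnajb4 (-1.04), Cacybp (-0.69), Hspa9 (-0.48), Cct3 (-0.47), Hspd1 (-0.41) and Hspe1 (-0.17), while Hsp90aa1 was at 0.24. The share of all genes that differed in these barcodes was not computed. In the pituitary, 15 such barcodes of the stress library had Hspa8 at 1355 CPM and 45 of the control library at 873 CPM, a log2 ratio of 0.64.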

How the results depend on the processing

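No paired analysis was possible because each tissue has 1 library per condition, and leaving out a library leaves nothing to compare. Over the alternatives run, the tissue counts and medians gave 64 values close to those reported and 5 that moved, none of them across 0. With 2-fold in place of 1.5-fold, 0 members were higher in the PVN and 1 in the adrenal. With cells thinned to 1000 UMIs, 1 was higher in the adrenal. The PVN median was 0.22 when clusters were weighted equally, and the pituitary median was 0.35 when ratios were centred on the median gene.

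By class, Hspa1a gave 197 values close to those reported, 44 that moved and 8 that changed sign from a value of at least 1.5-fold, and the inducible median gave 224, 29 and 2. The sign changes of these larger values came from subtracting the ratio in the other kept cells of the tissue, which by construction asks whether a class differs more than the rest. Hspa1a then stood at -0.0494 in endothelial-like, -0.23 in neuron-like and -0.00108 in oligodendrocyte-like cells of the PVN. In the pituitary it stood at -1.26 in endothelial-like, -0.0138 in fibroblast-like, -1.60 in macrophage-like, -0.0156 in melanotrope-like and -2.19 in stem or folliculostellate-like cells. The inducible median stood at -0.0576 in endothelial-like and -0.75 in macrophage-like cells of the pituitary. Some smaller ratios also crossed 0, most of them by the same subtraction. Under other settings these were Hspa1a in chromaffin-like cells with no filter on cells (-0.39) and in zona fasciculata-like cells with responsive genes kept in the clustering (-0.02), and the inducible median in chromaffin-like cells at a mitochondrial limit of 10% (0.23) and in erythroid-like cells after centring (-0.01). With the subtraction, Hspa1a was at 2.45 in PVN oligodendrocyte precursor-like cells (3.10 without it) and at 1.17 in somatotrope-like cells (3.22 without it). The subtraction left 2 of 25 Hspa1a values close to those reported. Thinning cells to 1000 UMIs moved 15 of 25, among them thyrotrope-like (4.12), pituicyte-like (1.60), oligodendrocyte precursor-like (2.24) and chromaffin-like cells (1.47). No sign changed. The thinned ratios were not held to the minimum UMI sum used elsewhere. Even before thinning, Hspa1a had 115 UMIs in stress and 11 in control in thyrotrope-like cells, and 60 in stress and 8 in control in pituicyte-like cells. After thinning, no thyrotrope-like cell of the control library kept an Hspa1a UMI, so 4.12 depends on the amount added to each sum. No size is read from the thinned thyrotrope-, pituicyte- and chromaffin-like values. Zona glomerulosa-like Hspa1a was below 0 under all alternatives run, between -1.35 and -0.31; the cause of that range was not tested. Precision is limited by 1 library per group and by low sums: small classes such as chromaffin-like cells (41 in stress and 28 in control) give wide intervals, and pools hide differences between mice.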
